A study of Mus musculus with 9 samples.

Results

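The glutathione, NRF2 and antioxidant genes described here are 43 listed mouse genes that serve glutathione, thioredoxin, peroxide removal, NADPH supply and metal binding. The rule lists them by function and uses no measured value, although earlier results of these data were known when the list was chosen. Of the 43 genes 40 were measured, among 19938 genes tested on the array. Prdx5, Prdx6 and G6pdx had no probe set assigned to that symbol alone and are not analysed here. In brain lines, Slc7a11, Mgst1 and Nqo1 were lower than in both primary and lung lines, Gstp1 was lower than in lung lines, and Me1 was higher than in primary lines. The other 35 measured genes passed the test in no comparison, Nfe2l2, Keap1, Gclc, Gclm and the peroxidases among them. Of the 8 calls in the brain comparisons, only that of Slc7a11 against primary lines held whichever line was left out.

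The RNA came from 9 lines of 4T1, a mouse mammary carcinoma that spreads to distant organs, each regrown from a tumor of a different mouse. The 3 lines named 4T1-T2 stem from primary tumors, the 3 named 4T1-LM2 from metastases in the lung and the 3 named 4T1-BM2 from metastases in the brain. Below, these are the primary, lung and brain lines, numbered by mouse. No drug or gene change separates the origins in the labels, and all lines were handled together in culture, so the levels are those of cultured cells and not of tumors. All lines descend from 4T1, and the lines of an origin share a name whose meaning is not given. Shared ancestry within an origin would leave fewer than 3 independent samples in it. The p-values set differences against the spread between these lines and treat the lines as independent. With shared ancestry they would be too small for a statement about origins.

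NRF2, the product of Nfe2l2, is a transcription factor that KEAP1 holds in the cytosol and sends for degradation. Electrophiles and oxidants modify KEAP1, NRF2 then accumulates and, with small MAF proteins, binds antioxidant response elements near genes for glutathione synthesis, conjugation, quinone reduction and NADPH supply. In carcinoma cells the pathway is known for supporting growth under oxidative stress and for resistance to electrophilic drugs. The cystine transporter SLC7A11 answers both to NRF2 and to ATF4, the factor of the amino acid response.

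Values are log2 intensities, 1 array per line, and the median level of 4.18 over probe sets with no gene name stands for background. Array medians lay between 5.06 and 5.19. The spread of an array around the gene medians was 0.178 in brain line 3 and 0.164 in lung line 1, against 0.0886 to 0.126 in the other 7. All 8 mammary epithelial markers were above background, and their summed log2 level was 86.7 to 87.8 in brain, 80.5 to 83.7 in lung and 79.3 to 83.0 in primary lines. In limma's test, Krt19 (adjusted p = 0.0262) and Cdh1 (adjusted p = 0.0386) rose against primary and Cldn7 (adjusted p = 0.0442) against lung lines. The part of this epithelial difference in the results below was not tested. Of 29 measured markers of fibroblasts, leukocytes, endothelium, lung and neural cells, 0 passed in any contrast. Dcn, Lum, Ptprc, Adgre1, Csf1r, Cdh5, Kdr, Scgb1a1, Aqp4 and Syt1 had means over the 9 lines below background. The other markers had means above it, some by wide margins. Across origins the group means were 7.30 to 7.57 for Pdgfra, 6.19 to 6.38 for Col1a1 and 6.18 to 6.54 for Col1a2. They were 6.17 to 6.41 for Mbp and 6.01 to 6.15 for Cd68. The source of this signal was not tested.

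Against primary lines, 1 of the 40 genes rose in brain lines (Me1), 3 fell (Slc7a11, Mgst1 and Nqo1) and 36 did not pass. A gene passed at a limma adjusted p under 0.05 over all 19938 genes, which 624 genes did in this contrast (3.13%), 311 of them higher (1.56%) and 313 lower (1.57%). Against lung lines, 0 rose, 4 fell (Nqo1, Gstp1, Slc7a11 and Mgst1) and 36 did not pass, beside 395 genes in all (1.98%), 182 of them higher (0.913%) and 213 lower (1.07%). After subtracting every array's own median, all genes split into 459 higher and 218 lower against primary and 296 higher and 146 lower against lung lines, and among the 40 genes it was 2 higher (Me1 and Osgin1) and 3 lower, and 0 higher and 4 lower. In limma's F test for any difference among origins 5 of the 40 passed, namely Slc7a11 (adjusted p = 0.00969), Nqo1 (0.0179), Mgst1 (0.0318), Gstp1 (0.0395) and Me1 (0.0457), and 470 genes in all (2.36%). Of the 8 calls in the brain contrasts, only Slc7a11 against primary lines was kept with limma fitted to all 35557 probe sets and the p-values adjusted over them. Without brain line 3 and lung line 1, the arrays of widest spread, Slc7a11 and Mgst1 passed against primary lines and 0 of the 40 against lung lines. With only the 6 arrays compared in the fit, Slc7a11 passed against primary lines, and Slc7a11 and Nqo1 against lung lines. The brain lines are common to the brain contrasts, so the appearance of Slc7a11, Mgst1 and Nqo1 in both is not independent evidence.

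Most of the genes moved little. The median log2 difference of the 40 was -0.08 in brain against primary lines and -0.10 in brain against lung lines, beside medians of 0.00 and -0.01 over all genes. With each array centred on its median it was -0.01 and -0.02, beside 0.07 and 0.07 over all genes. The difference between brain and primary lines was under 0.25 log2 units in size in 26 of the 40 genes and under 0.5 in 34. Over all 19938 genes these counts were 17060 and 19199, larger shares than among the 40. The 3 brain lines lay wholly below the primary lines in 9 genes and wholly above in 5, which is 35.0% of the 40 beside 17.8% of all genes (8.47% below, 9.36% above). They lay wholly below the lung lines in 11 and wholly above in 4, which is 37.5% beside 16.9% (8.63% below, 8.27% above). By line, the median of the 40 relative to the primary mean was -0.03, -0.04 and -0.04 in brain lines 1 to 3, 0.00, 0.08 and 0.04 in lung lines, and -0.03, 0.06 and -0.04 in primary lines.

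**Figure D1:**
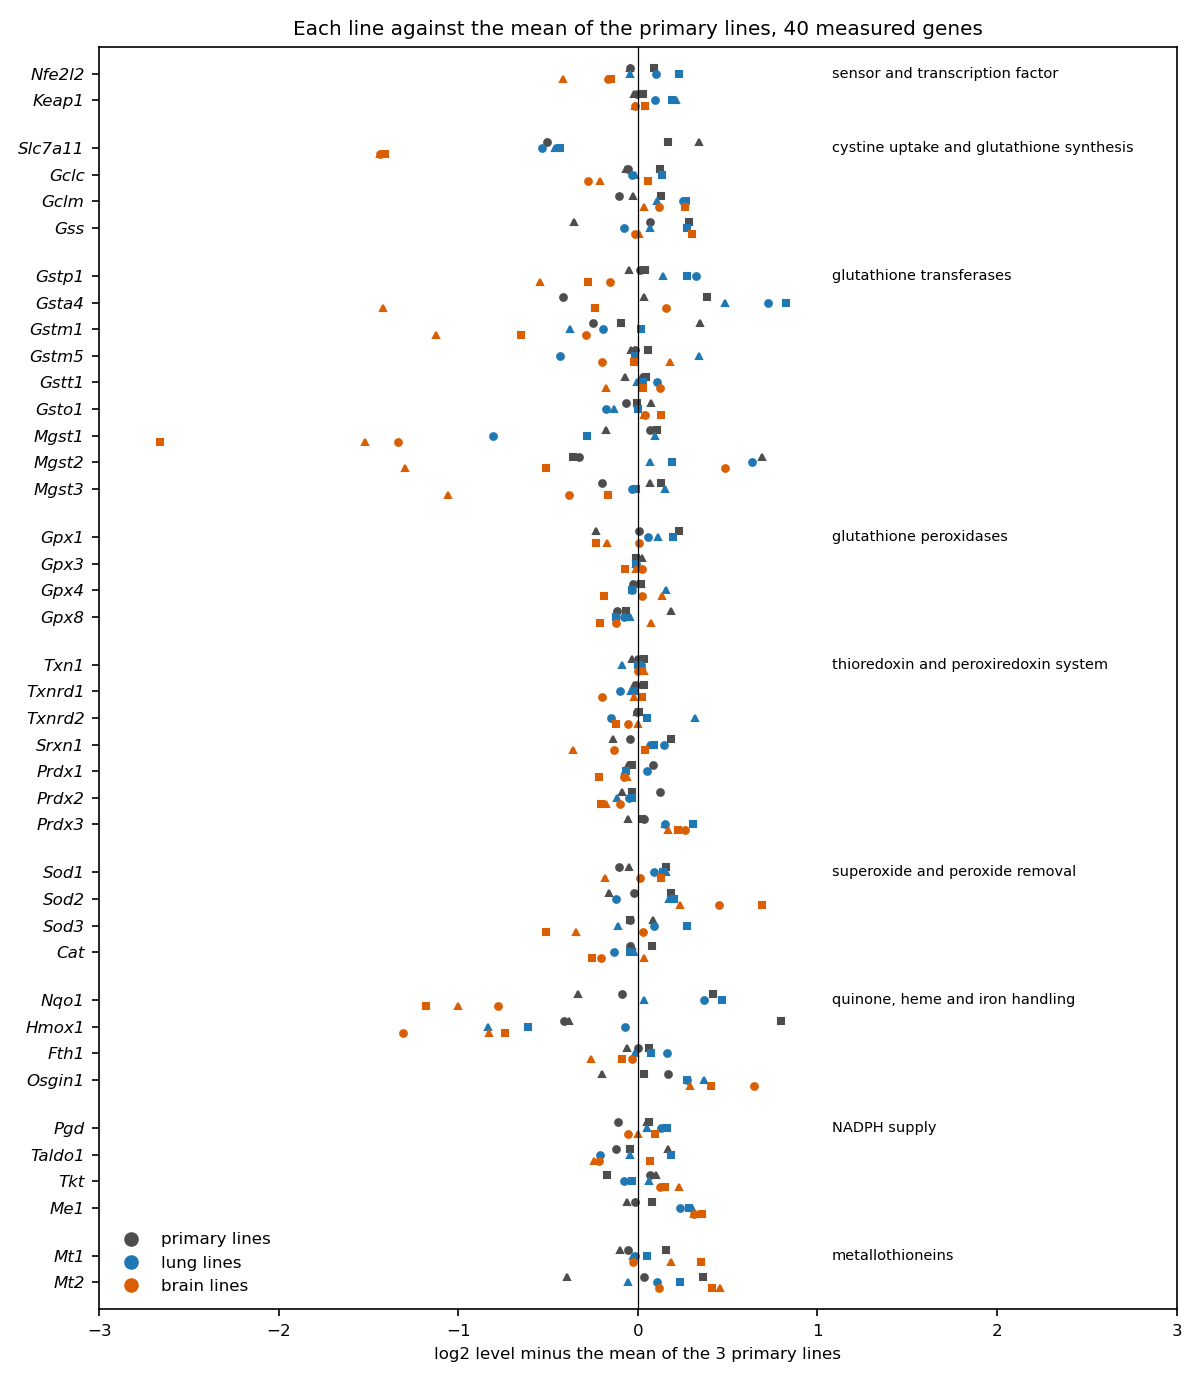
Log2 level of each of the 40 measured genes in each line minus the mean of the 3 primary lines, grouped by role, with circles, squares and triangles for mice 1, 2 and 3. Most points lie close to 0, and the brain lines stand apart on the low side in Slc7a11, Mgst1 and Nqo1.

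Nfe2l2 and its sensor passed in no contrast. Nfe2l2, which encodes NRF2, was at 9.50, 9.52 and 9.25 in brain lines 1 to 3, 9.77, 9.90 and 9.62 in lung lines and 9.62, 9.76 and 9.62 in primary lines. The brain lines lay below all 6 others, by small margins. The limma difference was -0.24 ± 0.10 (standard error, as after every log2 difference here) against primary lines (adjusted p = 0.249) and -0.34 ± 0.10 against lung lines (adjusted p = 0.123). Keap1, whose product targets NRF2 for degradation, was at 8.61, 8.66 and 8.61 in brain, 8.72, 8.82 and 8.83 in lung and 8.62, 8.65 and 8.60 in primary lines. Its lung lines lay above the other 6, and its difference in brain against lung lines was -0.17 ± 0.06 (limma adjusted p = 0.238).

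**Figure D2:**
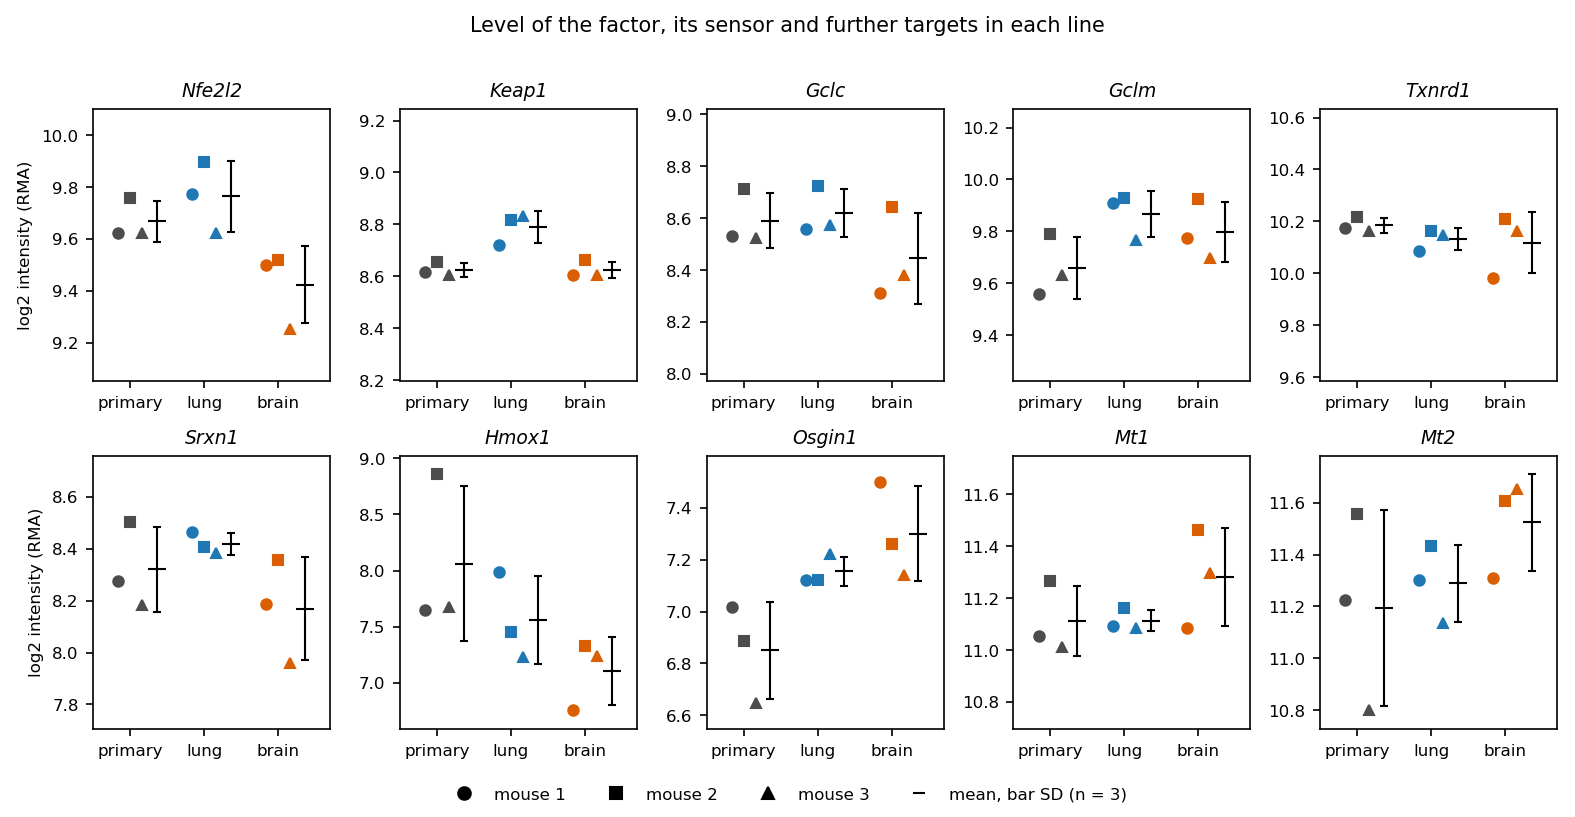
Log2 intensity of Nfe2l2, Keap1 and 8 further members of the gene set in each line, with marker shape by mouse number and the group mean with a bar of 1 SD (n = 3). None of these 10 genes passed the test in any contrast, and the brain lines of Nfe2l2 lie below all 6 others.

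Slc7a11, the cystine-importing chain of the xCT exchanger that brings in the limiting amino acid of glutathione, gave the smallest adjusted p of the 40 genes against primary lines. It was at 5.61, 5.63 and 5.61 in brain lines 1 to 3, 6.51, 6.61 and 6.58 in lung lines and 6.54, 7.21 and 7.38 in primary lines. The brain lines were nearly alike and lay below all 6 others, while primary line 1 lay among the lung lines. In brain lines Slc7a11 fell by 1.43 ± 0.17 log2 units against primary lines, a 2.69-fold lower level (95% interval of the log2 difference -1.82 to -1.04, limma adjusted p = 0.00386). Against lung lines it fell by 0.95 ± 0.17, 1.93-fold (limma adjusted p = 0.0262). Lung against primary lines differed by -0.48 ± 0.17 (limma adjusted p = 0.975). The call against primary lines held when any 1 line was left out. The call against lung lines was lost without any 1 brain or lung line, with adjusted p of 0.0748 to 0.113. In bulk RNA a smaller share of cells with a transcript and less of it per cell cannot be told apart, here and in every gene below.

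The promoter of Slc7a11 is printed because it holds 2 copies of an 8-base element, TGATGCAA, of the kind bound by ATF4 with C/EBP factors. Its 250 bases before the annotated start lie at chr3:50443614-50443863 on the minus strand (RefSeq, GRCm38.p6), with both matches in capitals, the first as written and the second on the opposite strand as TTGCATCA.
Slc7a11: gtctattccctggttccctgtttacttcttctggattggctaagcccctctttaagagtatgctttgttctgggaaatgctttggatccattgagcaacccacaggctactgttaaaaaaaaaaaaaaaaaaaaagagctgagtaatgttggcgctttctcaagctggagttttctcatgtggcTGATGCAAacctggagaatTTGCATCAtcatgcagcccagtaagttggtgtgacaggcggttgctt
The matches lie 66 to 59 and 47 to 40 bases before the start. On either strand the 8 bases occurred in 260 of 32851 RefSeq promoters of this length (0.791%), and in 1 of the 48 promoters found for 38 of the 43 genes. A match is a description of the sequence and shows no binding.

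The enzymes that build glutathione passed in no contrast. Gclc, the catalytic subunit of glutamate-cysteine ligase, was at 8.31, 8.64 and 8.38 in brain, 8.56, 8.72 and 8.58 in lung and 8.53, 8.71 and 8.52 in primary lines. Its groups overlapped, with limma adjusted p of 0.578 against primary and 0.481 against lung lines. Gclm, the modifier subunit of that ligase, was at 9.78, 9.92 and 9.70 in brain, 9.91, 9.93 and 9.77 in lung and 9.56, 9.79 and 9.63 in primary lines. It overlapped too, with limma adjusted p of 0.533 and 0.801. Gss, the synthetase of the final step, had means of 7.74 in brain, 7.73 in lung and 7.64 in primary lines.

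Of the 9 glutathione transferases, which join glutathione to electrophiles, 1 fell and 0 rose in brain against primary lines, with a median log2 difference of -0.44, or -0.11 without brain line 3. Against lung lines 2 fell and 0 rose, with a median of -0.57, or -0.31 without brain line 3. Mgst1, a microsomal transferase with peroxidase activity in membranes, had the largest log2 difference of the 40 genes in both contrasts. It was at 5.36, 4.03 and 5.17 in brain lines 1 to 3, 5.89, 6.41 and 6.79 in lung lines and 6.76, 6.80 and 6.52 in primary lines. Every brain line lay below every other line, and brain line 2 lay below the background level of 4.18. Mgst1 fell by 1.84 ± 0.32 log2 units against primary lines, 3.58-fold (limma adjusted p = 0.0175). This call was lost when primary line 1 (adjusted p = 0.0694) or primary line 2 (0.0706) was left out. Against lung lines it fell by 1.51 ± 0.32, 2.85-fold (limma adjusted p = 0.04996), at the threshold. That call was lost with the mouse number as a block (adjusted p = 0.0524) and in 8 of 9 fits without 1 line (0.0660 to 0.166), and without brain line 2 the log2 difference was -1.10.

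Mgst1 has a match to the antioxidant response element core, TGACNNNGC on either strand, in the promoter of the first of its annotated starts. The 250 bases lie at chr6:138140277-138140526 on the plus strand (RefSeq, GRCm38.p6), with the match, 56 to 48 bases before the start, in capitals.
Mgst1: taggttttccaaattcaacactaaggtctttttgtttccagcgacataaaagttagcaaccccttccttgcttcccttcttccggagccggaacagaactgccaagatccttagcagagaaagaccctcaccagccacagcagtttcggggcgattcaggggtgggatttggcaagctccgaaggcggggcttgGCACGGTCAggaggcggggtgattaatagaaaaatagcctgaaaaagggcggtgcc
The core occurred in 9 of the 48 promoters (18.8%) and in 10.2% of all 32851. The other matches among measured genes were in Gclm, Txnrd1, Prdx1, Sod1, Gstm5, Nfe2l2 and Mt2, which passed in no contrast. Gclc, Gsta4, Hmox1, Sod3 and Prdx6 had no promoter among those given and were not searched. The promoters of Slc7a11, Nqo1, Gstp1 and Me1, the other genes that passed a test, held no match, which says only that these letters are not in those windows. The windows with a match are set beside that of Mgst1, with the core in capitals: Gclm at chr3:122245407-122245447 (plus strand), Txnrd1 at chr10:82859098-82859138 (plus), Prdx1 at chr4:116685450-116685490 (plus), Sod1 at chr16:90220690-90220730 (plus), Gstm5 at chr3:107895796-107895836 (plus), Nfe2l2 at chr2:75704879-75704913 (minus) and Mt2 at chr8:94172523-94172563 (plus).
Gclm: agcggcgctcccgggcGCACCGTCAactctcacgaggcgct
Txnrd1: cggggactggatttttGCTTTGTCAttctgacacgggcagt
Prdx1: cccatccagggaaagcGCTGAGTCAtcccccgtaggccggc
Sod1: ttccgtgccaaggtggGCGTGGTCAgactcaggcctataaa
Gstm5: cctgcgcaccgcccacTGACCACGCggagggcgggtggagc
Nfe2l2: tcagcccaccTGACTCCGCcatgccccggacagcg
Mt2: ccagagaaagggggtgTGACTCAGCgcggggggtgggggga
In Prdx1 and Mt2 the core overlaps a match to the AP-1 site TGACTCA, searched on both strands and found in 7 of the 48 promoters (14.6%) and 4.46% of all.

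Gstp1, a cytosolic transferase of the pi class, was at 10.98, 10.86 and 10.59 in brain lines, 11.46, 11.41 and 11.28 in lung lines and 11.15, 11.17 and 11.08 in primary lines. The 3 origins did not overlap, with lung lines highest and brain lines lowest. It fell by 0.57 ± 0.10 log2 units in brain against lung lines, 1.49-fold (limma adjusted p = 0.0221), a call lost without brain line 2 (adjusted p = 0.0605) or lung line 1 (0.0846), 2 (0.101) or 3 (0.0544). The difference was -0.33 ± 0.10 against primary lines (limma adjusted p = 0.128) and 0.25 ± 0.10 in lung against primary lines (adjusted p = 0.975). Signal from near-identical transferase copies cannot be told apart on such an array, and its part was not tested.

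Among the transferases that did not pass, brain line 3 was the lowest of the 9 lines in Gsta4, Gstm1, Mgst2 and Mgst3, as it was in Gstp1, and it is also the array with the widest spread. Gsta4, which conjugates the lipid peroxidation product hydroxynonenal, was at 8.46, 8.07 and 6.89 in brain, 9.03, 9.13 and 8.79 in lung and 7.89, 8.69 and 8.34 in primary lines. Its brain lines lay below all lung lines and overlapped the primary lines. The difference was -1.18 ± 0.35 against lung lines (limma adjusted p = 0.134) and -0.50 ± 0.35 against primary lines (adjusted p = 0.580), and without brain line 3 it was -0.72 and -0.04.

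Gstm1, a mu class transferase, was at 6.40, 6.04 and 5.57 in brain, 6.49, 6.71 and 6.32 in lung and 6.44, 6.60 and 7.04 in primary lines. Brain lines lay below all primary lines, with a difference of -0.69 ± 0.21 (limma adjusted p = 0.130), or -0.47 without brain line 3. Against lung lines, which they overlapped, the difference was -0.50 ± 0.21 (adjusted p = 0.307), or -0.28 without brain line 3. Mgst2, a microsomal transferase, was at 8.04, 7.05 and 6.26 in brain, 8.19, 7.75 and 7.62 in lung and 7.23, 7.20 and 8.25 in primary lines. The spread within brain lines exceeded the difference to either group, which was -0.44 ± 0.42 (limma adjusted p = 0.719) against primary and -0.74 ± 0.42 (0.471) against lung lines, and without brain line 3 it was -0.0125 and -0.31. Mgst3, of the same microsomal family, was at 7.42, 7.64 and 6.75 in brain, 7.77, 7.79 and 7.96 in lung and 7.61, 7.94 and 7.87 in primary lines. Its difference was -0.54 ± 0.20 against primary lines (limma adjusted p = 0.204) and -0.57 ± 0.20 against lung lines (adjusted p = 0.195), and without brain line 3 it was -0.27 and -0.31. Gstm5, Gstt1 and Gsto1 had means of 7.24, 4.67 and 9.53 in brain, 7.22, 4.72 and 9.36 in lung and 7.26, 4.68 and 9.46 in primary lines.

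**Figure D3:**
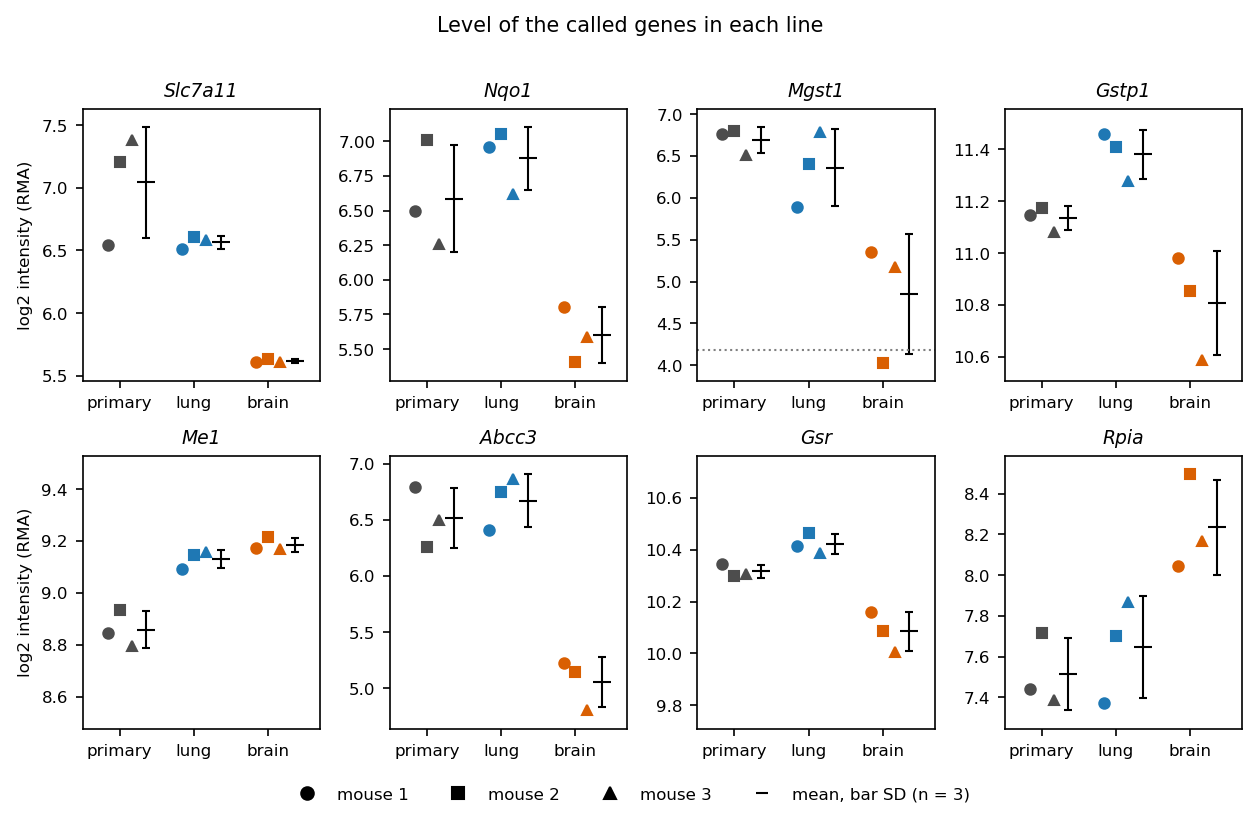
Log2 intensity in each line of the 5 members that passed a test and of Abcc3, Gsr and Rpia, with marker shape by mouse number and the group mean with a bar of 1 SD (n = 3), the dotted line in the Mgst1 panel marking the background level of 4.18. Brain lines lie below all others in Slc7a11, Nqo1, Mgst1, Gstp1, Abcc3 and Gsr, and primary lines lie below all others in Me1.

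None of the 4 glutathione peroxidases, which reduce peroxides with glutathione, passed in any contrast. Gpx4, the enzyme that reduces lipid hydroperoxides in membranes and restrains ferroptosis, had means of 11.44 in brain, 11.48 in lung and 11.45 in primary lines. Its second probe set likewise differed by -0.01 between brain and primary lines. Gpx1, the main cytosolic form, had means of 10.74, 11.00 and 10.88 in brain, lung and primary lines, and Gpx8, of the endoplasmic reticulum, 10.27, 10.28 and 10.36. Gpx3, the secreted plasma form, lay below background in all groups, at 3.49, 3.49 and 3.50.

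The 7 measured genes of the thioredoxin and peroxiredoxin system, out of 9 listed, also passed in no contrast. In the probe set taken for each gene, brain lines differed from primary lines by -0.16 to 0.22 log2 units. Txnrd1, the cytosolic thioredoxin reductase and a known NRF2 target, was at 9.98, 10.21 and 10.16 in brain, 10.08, 10.16 and 10.15 in lung and 10.18, 10.22 and 10.16 in primary lines. The groups overlapped. Srxn1, which reactivates overoxidised peroxiredoxins, was at 8.19, 8.36 and 7.96 in brain, 8.46, 8.41 and 8.38 in lung and 8.28, 8.50 and 8.18 in primary lines. Brain lines lay below all lung lines and overlapped the primary lines, with limma adjusted p of 0.337 and 0.611. Txn1, the thioredoxin itself, had means of 13.20, 13.16 and 13.19 in brain, lung and primary lines, and Txnrd2, the mitochondrial reductase, 7.96, 8.10 and 8.02. Prdx1 and Prdx2, cytosolic peroxiredoxins, had means of 11.27 and 11.91 in brain, 11.36 and 12.00 in lung and 11.38 and 12.07 in primary lines. A second Prdx2 probe set, with means of 8.64, 8.88 and 8.94, differed by -0.30 in brain against primary and -0.24 against lung lines. Its limma adjusted p over all probe sets was 0.141 and 0.283. The second Prdx1 probe set differed by -0.04 and 0.06, where the one taken gave -0.12 and -0.09. Which probe set of Prdx1 and of Prdx2 reads the gene itself, and which a copy, was not tested. Prdx3, the mitochondrial peroxiredoxin, had means of 10.57, 10.56 and 10.35, and its difference of 0.22 ± 0.07 between brain and primary lines did not pass (limma adjusted p = 0.142).

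Of the superoxide and peroxide removing enzymes, 4 of 4 were measured and 0 passed. Sod2, the mitochondrial superoxide dismutase, was at 9.31, 9.55 and 9.09 in brain, 8.74, 9.06 and 9.03 in lung and 8.84, 9.04 and 8.70 in primary lines. The brain lines lay above all 6 others. The difference was 0.46 ± 0.14 against primary lines (limma adjusted p = 0.118) and 0.38 ± 0.14 against lung lines (adjusted p = 0.226). Sod1, the cytosolic dismutase, had means of 11.26, 11.40 and 11.27 in brain, lung and primary lines, and Cat, the peroxisomal catalase, 8.86, 8.93 and 9.0. Sod3, the secreted dismutase, was near background at 4.12, 4.48 and 4.40, with the brain mean below it.

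Nqo1, a quinone reductase and a standard readout of NRF2 activity, was at 5.81, 5.41 and 5.59 in brain lines, 6.96, 7.06 and 6.62 in lung lines and 6.50, 7.01 and 6.26 in primary lines. Every brain line lay below every other line, and lung and primary lines overlapped. Nqo1 fell by 1.28 ± 0.19 log2 units in brain against lung lines, 2.42-fold (limma adjusted p = 0.0128), a call lost without lung line 1 (adjusted p = 0.0590) or 2 (0.0743). Against primary lines it fell by 0.99 ± 0.19, 1.98-fold (limma adjusted p = 0.0244), a call lost without brain line 2 (adjusted p = 0.0849) or 3 (0.0725) or primary line 1 (0.0709) or 2 (0.0602).

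Hmox1, the heme-degrading oxygenase that is also an NRF2 target, was at 6.75, 7.32 and 7.23 in brain, 7.99, 7.45 and 7.23 in lung and 7.65, 8.86 and 7.68 in primary lines. Brain lines lay below all primary lines, of which line 2 was the highest by more than 1 unit, and overlapped the lung lines. The difference of -0.96 ± 0.32 against primary lines did not pass (limma adjusted p = 0.161) and was -0.56 without primary line 2, and that of -0.45 ± 0.32 against lung lines did not pass (adjusted p = 0.588). Osgin1, a gene induced by oxidative stress, was at 7.50, 7.26 and 7.14 in brain, 7.12, 7.12 and 7.22 in lung and 7.02, 6.89 and 6.65 in primary lines. The primary lines lay below all 6 others, opposite in direction to Nqo1 and Hmox1 in brain against primary lines. The difference was 0.45 ± 0.11 in brain against primary lines (limma adjusted p = 0.0689), which passed with each array centred (0.0332), with the mouse number as a block (0.0483) and without the dimmest genes (0.0478). Same-numbered brain and primary lines hardly correlated (0.0666, -0.00074 and -0.044), so the block has little bearing on this contrast. Fth1, the heavy chain of ferritin, had means of 12.98, 13.18 and 13.11 in brain, lung and primary lines, with limma adjusted p of 0.523 and 0.277 for brain against primary and lung lines.

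Me1, the cytosolic malic enzyme that makes NADPH from malate, was the 1 member that rose. It was at 9.17, 9.22 and 9.17 in brain, 9.09, 9.14 and 9.16 in lung and 8.84, 8.94 and 8.80 in primary lines. Both metastatic origins lay above all primary lines. Me1 rose by 0.33 ± 0.06 log2 units in brain against primary lines, 1.25-fold (limma adjusted p = 0.0259), and its second probe set gave 0.31 (adjusted p = 0.103 over all probe sets). The probe set taken was the one with the higher mean, and whether it reads a copy of Me1 at another locus was not tested. The call was lost without any 1 brain line or primary line 1 or 3, with adjusted p of 0.0560 to 0.0841. Lung against primary lines differed by 0.27 ± 0.06 (limma adjusted p = 0.975), and brain against lung lines by 0.05 ± 0.06 (95% interval -0.09 to 0.20, adjusted p = 0.776). The pentose phosphate genes did not pass: Pgd, the second NADPH-yielding dehydrogenase of the pathway, had means of 10.81, 10.91 and 10.80 in brain, lung and primary lines, Taldo1, the transaldolase, 8.31, 8.42 and 8.44, and Tkt, the transketolase, 10.62, 10.43 and 10.45.

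The metallothioneins, small proteins that bind zinc and copper and are induced through the factor MTF1, did not pass. Mt1 was at 11.08, 11.46 and 11.30 in brain, 11.09, 11.16 and 11.09 in lung and 11.05, 11.26 and 11.01 in primary lines. Mt2 was at 11.31, 11.61 and 11.65 in brain, 11.30, 11.43 and 11.14 in lung and 11.23, 11.56 and 10.80 in primary lines. The groups overlapped in both genes. In brain against primary lines the differences were 0.17 ± 0.10 for Mt1 (limma adjusted p = 0.504) and 0.33 ± 0.17 for Mt2 (adjusted p = 0.424).

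**Figure D4:**
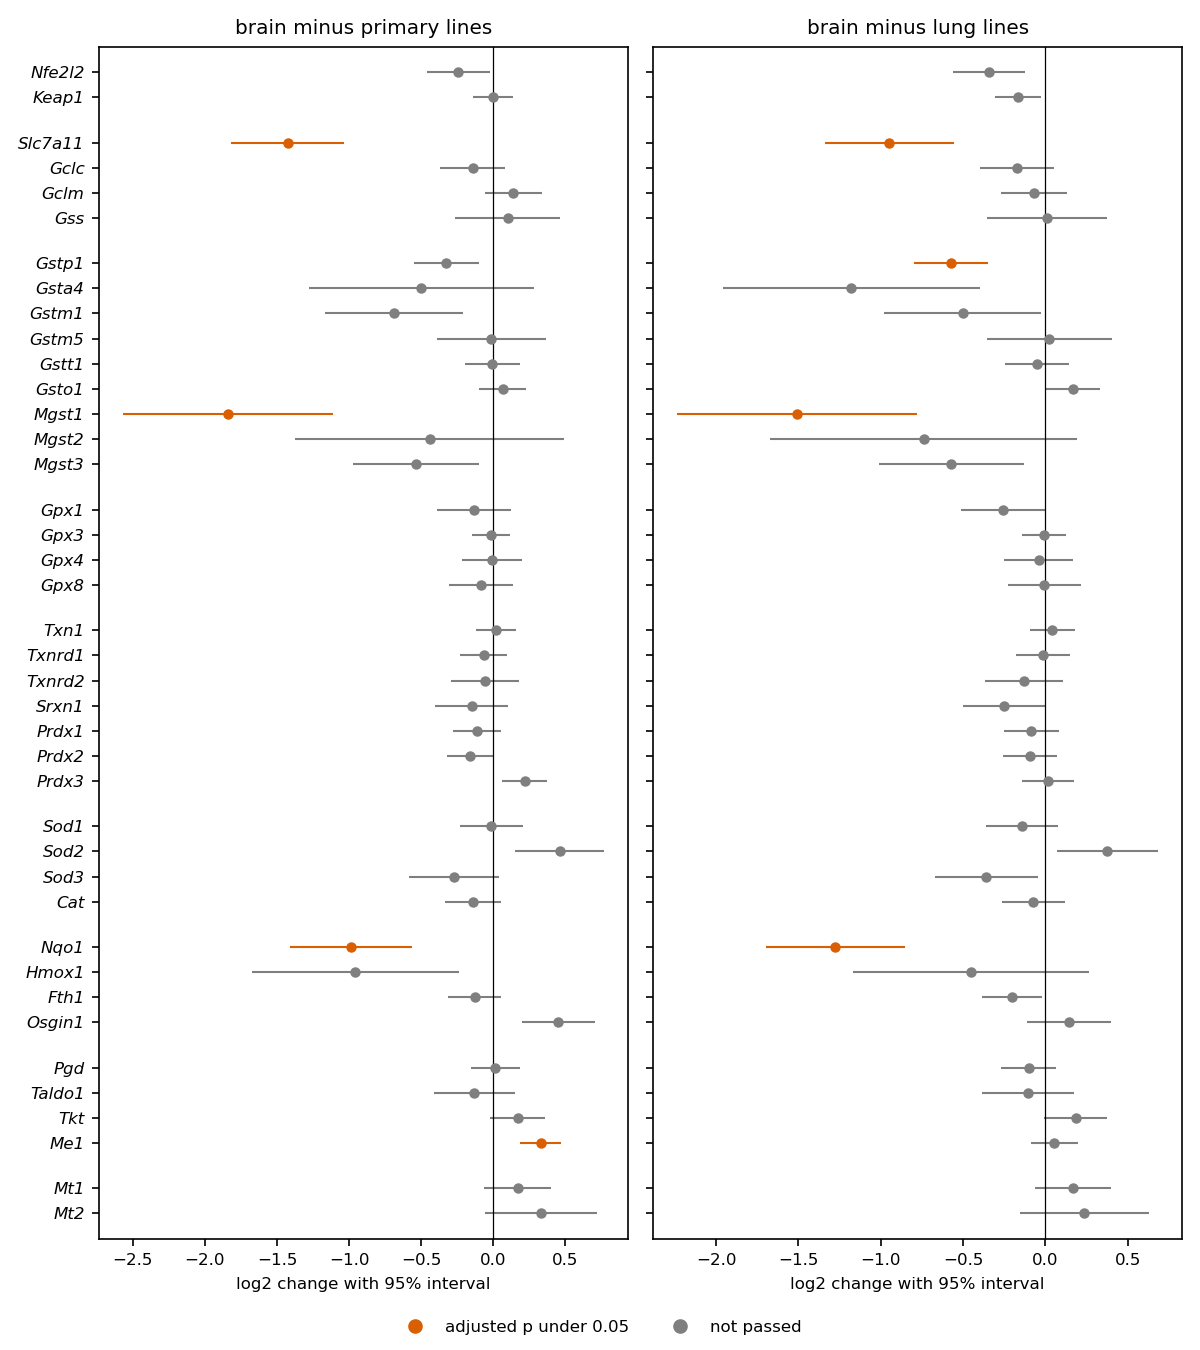
Log2 difference of each of the 40 genes with its 95% interval from limma, in brain minus primary lines and in brain minus lung lines, coloured where the adjusted p was under 0.05. The 4 coloured genes in each panel lie below 0 except Me1 in brain minus primary lines, and Gpx3 and Sod3 lie at background.

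Between lung and primary lines 0 of the 40 genes and 0 of 19938 in all passed (0%), with adjusted p of 0.975 or more for the 40. At an unadjusted p under 0.05, limma listed 7 of the 40, Keap1, Slc7a11, Gclm, Gstp1, Prdx3, Osgin1 and Me1, beside 946 genes in all (4.74%). The lung lines lay wholly above the primary lines in 6 genes and wholly below in 0, which is 15.0% of the 40 beside 8.71% of all genes (4.88% above, 3.84% below). For Slc7a11 the lung lines lay around primary line 1 and below primary lines 2 and 3. The largest difference in size was that of Gsta4, at 0.68 ± 0.35. At the same unadjusted level there were 12 of the 40 genes in brain against primary lines, beside 3146 in all (15.8%), and 13 in brain against lung lines, beside 2971 (14.9%).

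Of a longer list of 83 other genes of glutathione, thioredoxin, quinone, iron, NADPH and metal handling, 79 were measured. In brain against primary lines 1 was higher (Rpia) and 1 lower (Abcc3), or 2.53% beside 3.13% of all genes, with a median difference of 0.01. Against lung lines 0 were higher and 2 lower (Abcc3 and Gsr), again 2.53%, beside 1.98% of all genes, with a median of -0.05. In lung against primary lines 0 passed. Abcc3, an efflux pump for glutathione and glucuronide conjugates, was at 5.22, 5.14 and 4.80 in brain, 6.41, 6.74 and 6.86 in lung and 6.79, 6.26 and 6.50 in primary lines. The brain lines lay more than 1 unit below all others. It fell by 1.46 ± 0.16 log2 units against primary lines, 2.75-fold (limma adjusted p = 0.00271), and it fell by 1.62 ± 0.16 against lung lines, 3.06-fold (adjusted p = 0.00377), and both calls held in all 19 alternatives.

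Gsr, the reductase that regenerates glutathione from its disulfide, was at 10.16, 10.09 and 10.01 in brain, 10.42, 10.46 and 10.39 in lung and 10.35, 10.30 and 10.31 in primary lines. The 3 origins did not overlap, in the same order as in Gstp1. Gsr fell by 0.34 ± 0.06 log2 units against lung lines, 1.26-fold (limma adjusted p = 0.0305), a call kept in 2 of 9 fits without 1 line (up to 0.134 over all alternatives), and differed by -0.23 ± 0.06 against primary lines (adjusted p = 0.0960). Rpia, the ribose 5-phosphate isomerase of the pentose phosphate pathway, was at 8.04, 8.49 and 8.17 in brain, 7.37, 7.70 and 7.87 in lung and 7.44, 7.72 and 7.38 in primary lines. The brain lines lay above all 6 others. Rpia rose by 0.72 ± 0.15 against primary lines, 1.65-fold (limma adjusted p = 0.0365), a call kept in 3 of 9 fits without 1 line (up to 0.120 over all alternatives). Against lung lines it differed by 0.59 ± 0.15 (limma adjusted p = 0.0960), which passed with the mouse number as a block (0.0380).

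**Figure D5:**
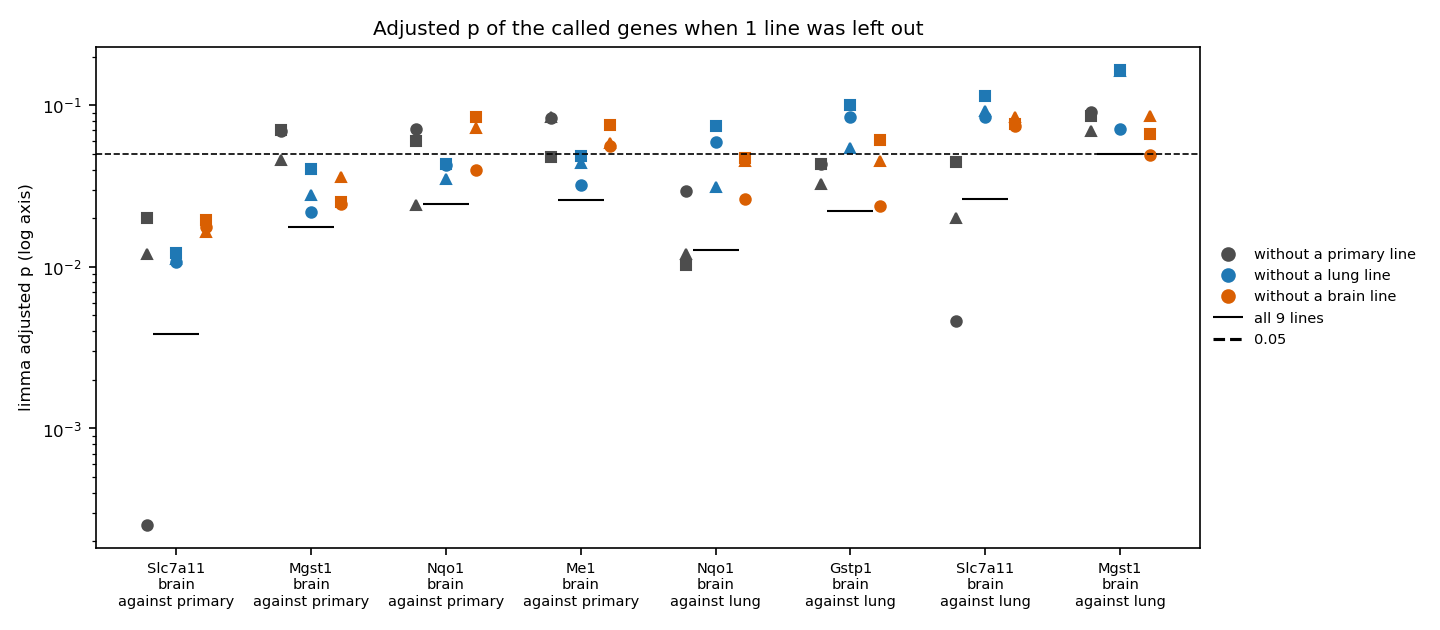
Limma adjusted p, on a log axis, of each of the 8 calls among the 40 genes with all 9 lines (bar) and without 1 line at a time (points coloured by the origin left out, shaped by mouse number), with a dashed line at 0.05. Slc7a11 in brain against primary lines stays under the line in all 9 fits, and the other 7 calls cross it in at least 2.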

How the data were processed

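The deposited table holds log2 intensities of 35557 probe sets for 9 Affymetrix Mouse Gene ST arrays, made by the authors with RMA per the submitters' processing notes. The log base is not named there, and the range of values is that of log2. Its software version is not given in the sources used here, nor is a genome build. Precision is limited by having 9 arrays.

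Probe sets were named through the platform annotation: 21789 had 1 gene symbol, 1621 several and 12147 none. The probe set with the highest mean was taken for the 999 genes with more than 1, which left 19938 genes, 19919 of them in the RefSeq gene table and 0 renamed through it. Limma 3.58.1 in R 4.3.3 was fitted to all 9 arrays with a coefficient per origin (lmFit and eBayes, two-sided, 6 residual and 3.72 prior degrees of freedom), with Benjamini-Hochberg adjustment over all genes, after a check on simulated data. With 3 lines a group the smallest exact permutation p is 0.1, and no such test was run. A group mean below background is given as a level with no fold.

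Every line value was given for genes that passed a test, for the 10 largest changes in each brain contrast and the 5 largest in lung against primary lines, and for a fixed set of NRF2 genes and metallothioneins. Other pathway genes were named only if they passed. The members and lists were chosen with earlier results of these data known, and the AP-1 and ATF4-type motifs were added after the values had been seen.

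Mouse numbers recur in each origin although the mice differ. Deviations of same-numbered lines correlated at 0.284, 0.130 and 0.241 between brain and lung lines, but at 0.0666, -0.00074 and -0.044 between brain and primary lines and at 0.221, 0.0785 and 0.0080 between lung and primary lines. A fit with the number as a block was therefore an alternative that bears on brain against lung lines, with the pairing taken from the data alone.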

Additional observations from a re-analysis of the deposited data

How the results depend on the processing

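Across 19 alternatives no value of the named genes changed sign where it had passed, and lung against primary lines gave 0 calls in each. The median log2 difference of the 40 genes was -0.12 in brain against primary and -0.13 in brain against lung lines after quantile normalization again, and -0.01 (-0.0117) and -0.02 (-0.0224) with each array centred, where the medians of all genes were 0.07 and 0.07. Without 1 line it ranged from -0.0772 to -0.0542 and from -0.13 to -0.0772.

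Members called in brain against primary lines (4) numbered 1 at an adjusted p under 0.01, 1 with every probe set, 1 with only the 6 arrays compared, 2 without brain line 3 and lung line 1 (chosen after seeing the data), and 1 to 4 without 1 line. In brain against lung lines (4) these were 0, 0, 2, 0 and 0 to 3, and by the F test (5) they were 1, 0 and 0 without a 6-array value, and 1 to 3. Of the other pathway genes in brain against primary lines (2), the same settings left 1, 1, 1, 1 and 1 to 4, with 4 after quantile normalization again. In brain against lung lines (2) they left 1, 1, 1, 1 and 1 to 3, with 1 after centring and 4 with an intensity trend. The F test (1) gave 4 with array weights, 2 after centring, 2 with an intensity trend, 4 after quantile normalization, 3 without the dimmest genes and 1 to 2 without 1 line. The replicate block gave 5 other pathway genes in brain against primary lines, 5 in brain against lung lines and 3 by the F test, and 5 members in brain against primary lines (Osgin1 added) and 3 in brain against lung lines, where Mgst1 was lost and no other member's call changed. By the F test the block left 4 members, without Me1.

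Over all genes, 624 calls in brain against primary lines became 157 at 0.01, 246 with every probe set, 197 with 6 arrays, 323 without brain line 3 and lung line 1, and 273 to 556 without 1 line. The 395 in brain against lung lines became 66, 92, 107, 87 and 69 to 417, and the 470 of the F test 81, 92, 114 (without the pair of lines) and 160 to 370. The cause of these shifts was not tested.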

Other observations

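In the lines from mice numbered 2, several of the 40 genes were high in every origin. The line of mouse 2 was the highest of its origin in all 3 origins for 8 genes, Nfe2l2, Gclc, Gclm, Gss, Txnrd1, Sod2, Pgd and Mt1 (20.0% of the 40), beside 1085 of 19938 genes (5.44%). For mouse 1 this held for 0 of the 40 (9.27% of all genes) and for mouse 3 for 2, Gpx8 and Tkt (5.0%, beside 3.74%). These counts were made after the values had been seen, the 3 mice of a number are separate animals, and the labels do not say what the number marks.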
